A study of Mus musculus with 27 samples.

Results

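The CC chemokine genes followed here are Ccl2, Ccl3, Ccl4, Ccl5, Ccl6, Ccl7, Ccl8, Ccl9, Ccl11 and Ccl20, which are 10 named genes of the 37991 in the files. They were measured in cells from the calvaria, the flat bones of the skull vault, of neonatal C57BL/6J-Col3.6 CFP mice 5 to 9 days old. All cells carried cyan fluorescent protein under Col3.6, a fragment of the collagen type I promoter that is active in cells of the osteoblast lineage from an early stage. The cells were grown for 4 days in medium with 10% fetal bovine serum, sorted for the fluorescent protein, replated and differentiated in ascorbic acid, β-glycerol phosphate and 10% fetal bovine serum. RNA was taken on 9 days, every other day from day 2 to day 18, and 3 profiles were deposited per day. There was no undifferentiated or untreated group, so each comparison is between days of 1 time course.

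The 3 profiles of a day had 1 barcode in common and came from separate lanes, so they were summed and counted as 1 library per day. The paper describes them as triplicate samples, and nothing in the labels tells whether they came from separate cultures. A standard deviation (SD) over the 3 profiles covers sequencing and quantification only, and the p-values come from the scatter of 9 daily libraries around a line or a smooth curve in day. A day held 22470195 to 62009157 counts, lowest on day 10 and highest on day 12. Levels are given as TPM, a measure of transcript abundance that divides counts by transcript length and by the size of the library, after upper-quartile normalisation, and a gene was called expressed at 1 TPM or more. Fitted changes are log2 changes from day 2 to day 18 along a straight line in day, with a standard error (SE) and were tested in edgeR by quasi-likelihood over 15659 genes, with a Benjamini-Hochberg adjusted p called below 0.05. On that line, 28.3% of all genes tested rose and 26.1% fell. Of 7 osteoblast markers, 5 rose (Runx2, Ibsp, Bglap, Col1a1 and Dmp1), and none fell past the threshold. Sp7 and Alpl did not pass (edgeR adjusted p = 0.233 and 0.146). Sp7 was highest on day 2 (32.3 TPM), with 2.77 TPM on day 8 and 10.6 TPM on day 18. Alpl was at 9.13 TPM on day 2, 0.467 TPM on day 6 and 17.6 TPM on day 18. Of 8 monocyte and macrophage markers, 7 rose (Csf1r, Ptprc, Cd68, Lyz2, Emr1, Itgam and Aif1), and their summed level with Cd14 was 24.1 to 62.3 TPM on days 2 to 6 and 524 to 2020 TPM on days 14 to 18. In bulk RNA, fewer cells of a type and less RNA per cell cannot be told apart.

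CC chemokines are small secreted proteins named for a pair of adjacent cysteines, and they attract leukocytes through G protein-coupled receptors of the Ccr family. Ccl2, Ccl7, Ccl8 and Ccl11 belong to the monocyte chemoattractant and eotaxin branch, Ccl3, Ccl4 and Ccl5 attract monocytes and T cells, Ccl6 and Ccl9 are ligands of Ccr1, and Ccl20 is the ligand of Ccr6. Osteoblasts are a known source of several of them, and Ccl2, Ccl3 and Ccl9 are known to act on osteoclast precursors, the myeloid cells that form bone-resorbing osteoclasts.

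Ccl2 and Ccl7 were the abundant CC chemokine genes of the early culture and fell with day, while Ccl3, Ccl5, Ccl6, Ccl8, Ccl9 and Ccl11 rose. Ccl4 and Ccl20 did not pass the filter on low counts. Of all genes tested, 28.3% rose and 26.1% fell on the line (54.3% in either direction), against 6 and 2 of the 8 members tested. Ccl3 and Ccl6 reached the filter only through libraries of later days, so the count of 8 is a description. With a natural spline in day, which allows a rise and a fall, all 8 also passed, beside 57.5% of 16256 genes.

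**Figure D1:**
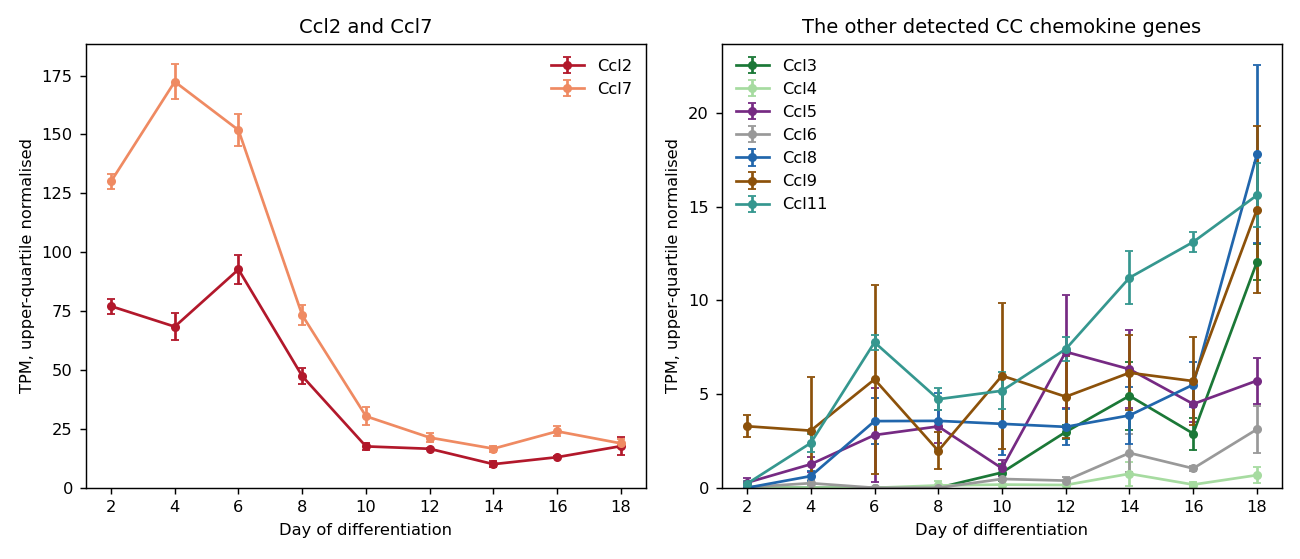
Level of each detected CC chemokine gene by day of differentiation in TPM after upper-quartile normalisation, on separate linear scales for Ccl2 and Ccl7 (left) and for the other 7 genes (right); points are means and bars are the SD over the 3 profiles of 1 library. Ccl7 stood at 130 to 172 TPM on days 2 to 6 and at 16.6 to 24.0 TPM on days 14 to 18, whereas Ccl3, Ccl8, Ccl9 and Ccl11 were highest on day 18.

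Ccl2, which attracts monocytes through Ccr2, had TPM of 77.1, 68.4, 92.7, 47.4, 17.6, 16.6, 10.0, 13.0 and 17.7 in order of day. The 3 earliest days lay above all later days, and days 10 to 18 stayed between 10.0 and 17.7 TPM. Its counts were 3689 over days 2 to 6 and 622 over days 14 to 18, which is 6.12-fold lower in CPM, the counts scaled to library totals adjusted by the normalisation factors of the fit. The fitted change was -3.16 (SE 0.55, edgeR adjusted p = 0.000803). The drop was concentrated between days 6 and 10, with CPM 1.89-fold lower on day 8 than on day 6 and 2.62-fold lower on day 10 than on day 8.

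Ccl7, a second monocyte attractant whose gene lies next to Ccl2, had TPM of 130, 172, 152, 73.3, 30.4, 21.3, 16.6, 24.0 and 18.9 in order of day. As for Ccl2, all early days lay above all late days and day 14 was the lowest, but its highest day was day 4, where that of Ccl2 was day 6. Over days 14 to 18 it had 892 counts against 6826 over days 2 to 6, or 7.89-fold lower in CPM. Its fitted change was -3.81 (SE 0.52, edgeR adjusted p = 0.000215), and CPM was 2.01-fold lower on day 8 than on day 6 and 2.32-fold lower on day 10 than on day 8. A fall of at least the size of that of Ccl2 was found in 1.92% of all genes tested, and one of at least that of Ccl7 in 1.2%. Ccl7 was above Ccl2 on all 9 days, with a ratio of TPM between 1.07 on day 18 and 2.52 on day 4. On day 18 the gap between them, 18.9 against 17.7 TPM, was smaller than the SD over profiles of Ccl2 (3.85 TPM). The span of Ccl2 is crossed by an antisense gene, Gm17268, that was listed at 0 counts, and the libraries did not mark strand.

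Ccl11 (eotaxin, an attractant of eosinophils through Ccr3) had TPM of 0.218, 2.39, 7.76, 4.73, 5.18, 7.40, 11.2, 13.1 and 15.6 in order of day. It climbed early from 5 counts on day 2 to 182 counts on day 6, was lower on days 8 and 10, and then went up at each later day. Days 14 to 18 all lay above days 2 to 6, with 3.67-fold more CPM. The fitted change was 3.17 (SE 0.83, edgeR adjusted p = 0.00817). In the comparison of days 14 to 18 against days 2 to 6 by the same test, the adjusted p was 0.0852.

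Ccl8, another gene of that branch, had TPM of 0, 0.624, 3.56, 3.57, 3.41, 3.25, 3.86, 5.50 and 17.8 in order of day. It was level from day 6 to day 14, and day 18 stood alone, with 111 counts against 39 on day 16. The fitted change was 4.00 (SE 1.01, edgeR adjusted p = 0.00689), and the CPM of days 14 to 18 were 6.06-fold those of days 2 to 6. Without day 18 the adjusted p was 0.0806, and with days 14 to 18 set against days 2 to 6 it was 0.0728.

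Ccl3 (macrophage inflammatory protein 1 alpha, an attractant of monocytes and osteoclast precursors) had 0 counts on days 2, 4, 6 and 8, then 6, 52, 67, 43 and 158 counts on days 10 to 18. In TPM it went from 0.816 on day 10 to 2.98, 4.91, 2.89 and 12.0 on days 12 to 18. No early library held a read of it, and all libraries from day 10 did. Over days 14 to 18 it was at least 86.6-fold higher in CPM than over days 2 to 6, against a floor of 3 counts over those 3 days. It entered the fit only through the libraries of days 10 to 18, so its call on the line follows in part from the filter, and its fitted slope starts from 0 counts and gives no fold.

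Ccl4, the neighbour and close relative of Ccl3, had 0 counts on days 2 to 6, then 1, 1, 2, 8, 2 and 7 counts on days 8 to 18. Its highest level was 0.749 TPM, so it was not expressed by the threshold of 1 TPM and was not tested. The 17 counts of days 14 to 18 put it at least 5.50-fold higher than on days 2 to 6, against the same floor. Ccl5 (RANTES, an attractant of T cells and monocytes) had TPM of 0.274, 1.26, 2.81, 3.27, 1.04, 7.25, 6.33, 4.47 and 5.72 in order of day. It had its highest level on day 12, not at the end, and the SD over profiles reached 3.02 TPM on that day, from 68 counts. Its fitted change was 2.91 (SE 0.93, edgeR adjusted p = 0.0222), the highest adjusted p of the 8. The adjusted p was 0.0778 without day 2, 0.0641 without day 4 and 0.0648 without the profiles numbered 3.

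Ccl6 and Ccl9 are neighbouring genes whose products bind Ccr1. Ccl6 had counts of 1, 6, 0, 0, 4, 9, 37, 29 and 60 from day 2 to day 18, and its level passed 1 TPM only on days 14 (1.86), 16 (1.03) and 18 (3.12). Its late days all lay above its early days, with 17.5-fold more CPM. The fitted change was 5.50 (SE 1.25), but the gene entered the fit only through days 14 to 18 and was under the filter without day 14 or without day 18. Over the other settings it ran from 2.60 (limma on log2(TPM + 0.5)) to 7.68 (without day 4). A long noncoding gene on the opposite strand, E230016K23Rik, runs across the span of Ccl6 and had 159 counts in all. Neither gene had fractional counts in any profile, so no split of reads between them was seen. Reads from any shared part could not be told apart by strand. Ccl9, an attractant of osteoclast precursors, was found on all 9 days, with estimated counts of 113, 113, 148, 63.0, 71, 296, 196, 293 and 319 from day 2 to day 18. Its fitted change was the smallest rise of the 6, 1.56 (SE 0.31, edgeR adjusted p = 0.00161), and 14% of all genes tested rose by at least as much. In TPM the early days (3.05 to 5.78) overlapped the late days (5.69 to 14.8), and the SD over profiles reached 5.02 TPM on day 6. The transcript length by which its counts were divided varied, with a mean of 1888 bases on day 16 and 846 bases on day 18. Between those days its CPM rose 1.26-fold, while its TPM went from 5.69 to 14.8. The counts of Ccl9 were fractional in 12 of 27 profiles, so some reads were shared between matching transcripts and its values are uncertain to that extent. Ccl20, whose receptor Ccr6 marks some T and B cells, had 0 counts in all 27 profiles, which at 3 counts of the unadjusted total allows up to 0.0484 CPM on day 12, the deepest, and 0.134 CPM on day 10, the shallowest.

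Of the 8 members tested, 5 had all of days 14 to 18 above all of days 2 to 6 (Ccl3, Ccl5, Ccl6, Ccl8 and Ccl11), beside 32.4% of all genes tested, and 2 had all below (Ccl2 and Ccl7), beside 25.6%. Ccl3 and Ccl6 passed the filter only through later days, so their order follows in part from the filter and these counts are a description. Ccl4, not tested, also had all late days above all early days. The summed level of the 8 monocyte and macrophage markers, all of which had counts, was highest on day 18 (2020 TPM), as were Ccl3, Ccl6, Ccl8, Ccl9 and Ccl11 but not Ccl5. The osteoblast (4646 TPM), adipocyte, T cell and B cell sums were also highest on day 18. The osteoclast, neutrophil and mast cell sums were highest on day 16, and the endothelial sum on day 14. Of the 8 monocyte and macrophage markers, Cd14 alone did not pass the test (edgeR adjusted p = 0.129). Lyz2, the lysozyme gene of myeloid cells, made up most of the monocyte and macrophage sum, at 19.9 TPM on day 2 and 1855 TPM on day 18. Csf1r, the receptor that sustains macrophages, was at 1.38 and 14.9 TPM on those days. The osteoclast markers Acp5, Ctsk and Mmp9 also rose, Oscar and Ocstamp did not pass (edgeR adjusted p = 0.932 and 0.119) and Calcr was at 0. Their summed level, of which Ctsk made up the most, was 37.6 to 86.0 TPM early and 208 to 217 TPM late. The 5 adipocyte markers all rose, with a sum of 3.21 to 7.44 TPM early and 188 to 407 TPM late. Kit and Cpa3, mast cell genes, rose as well, at 1.62 and 0.910 TPM at most, while the mast cell markers Mcpt4, Fcer1a and Tpsb2 had 0 counts. Cd4, of the T cell list, rose to 3.07 TPM on day 18, while Cd3e and Cd3g had 0 counts. The neutrophil markers S100a9, Mpo and Ngp had 0 counts and none of that list was tested, with a summed level of 1.44 TPM at most. Among B cell markers Ms4a1 had 0 counts, and the 1 tested, Cd79a, did not pass (edgeR adjusted p = 0.66). Of the endothelial markers Cdh5 and Tek rose and Kdr fell, with a sum of 3.24 to 3.95 TPM early and 8.84 to 12.0 TPM late. The part of any of these cell types in the chemokine levels was not tested.

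Ccl2 and Ccl7 made up most of the summed level of the 10 genes on days 2 to 12. The other members together made up more than that pair on days 14 and 18. This sum leaves out the other CC ligands of the mouse, described below. Those matched summed to 17.5 to 19.2 TPM on days 2 to 6 and 40.3 to 46.9 TPM on days 14 to 18. Summed over the 10 genes, the level was 211, 248, 264, 134, 65.0, 64.2, 61.7, 69.8 and 106 in order of day. Ccl2 and Ccl7 made up 98.2% of the sum on day 2 but 34.4% on day 18, with 73.8% on day 10. The other 8 genes together held 3.81 TPM on day 2 and 69.8 TPM on day 18. The number of members at 1 TPM or more was 3 on day 2 (Ccl2, Ccl7 and Ccl9), 6 on day 10 and 8 on each of days 14, 16 and 18.

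**Figure D2:**
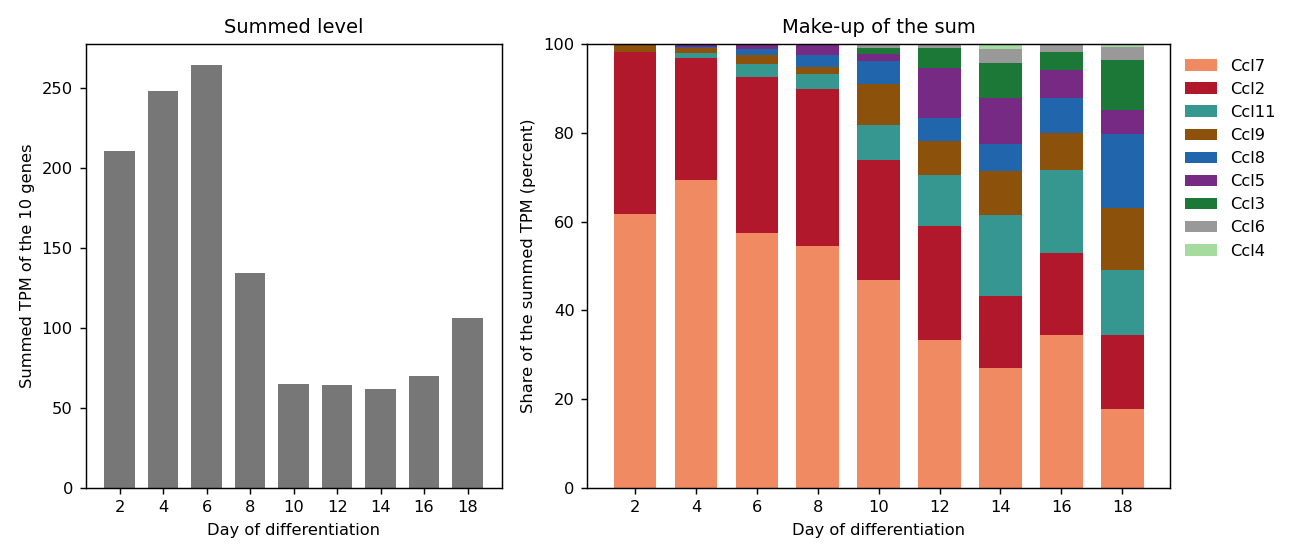
Summed level of the 10 CC chemokine genes by day in TPM (left, bars from 0) and the share of each gene in that sum in percent (right), 1 library per day. The sum was highest on day 6 (264 TPM), and the share of Ccl2 and Ccl7 went from 98.2% on day 2 to 34.4% on day 18.

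On day 18 the order by level was Ccl7 (18.9 TPM, SD 1.96 over 3 profiles), Ccl8 (17.8, SD 4.75), Ccl2 (17.7, SD 3.85), Ccl11 (15.6, SD 1.71), Ccl9 (14.8, SD 4.44), Ccl3 (12.0, SD 0.953), Ccl5 (5.72, SD 1.23), Ccl6 (3.12, SD 1.26) and Ccl4 (0.675, SD 0.440). Among the first 6, each neighbour in this order differed from the next by less than the larger of their SDs. The place of Ccl9 also rests on the short transcript length, 846 bases, used for it on that day. Ccl5 stood below Ccl3, Ccl6 below Ccl5 and Ccl4 below Ccl6, by more than those SDs. On day 2 the same genes ran from 130 TPM for Ccl7 and 77.1 TPM for Ccl2 to 3.28 TPM for Ccl9, with every other member at 0.274 TPM or less.

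All members but Ccl20 lie on chromosome 11 of build NCBIM37, in a pair of groups. The first holds Ccl2 (chr11:81849073-81850955, plus strand), Ccl7 (chr11:81859214-81861027, plus), Ccl11 (chr11:81871325-81876457, plus) and Ccl8 (chr11:81928687-81930301, plus), with Ccl12 between the last pair. The second holds Ccl5 (chr11:83339280-83344020, minus), Ccl9 (chr11:83386421-83392138, minus), Ccl6 (chr11:83401384-83406589, minus), Ccl3 (chr11:83461346-83462857, minus) and Ccl4 (chr11:83476086-83478185, plus). Ccl20 is on chromosome 1 (chr1:83113341-83115742, plus). The falling genes were next to each other, with 8258 bases between Ccl2 and Ccl7, and Ccl11, which rose, began 10297 bases beyond Ccl7 on the same strand. The first group thus held genes of both directions, and every tested gene of the second rose, beside 28.3% of all genes tested. Of the second group, Ccl3 and Ccl6 passed the filter only through later days. Their direction thus follows in part from the filter, and the layout is a description.

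**Figure D3:**
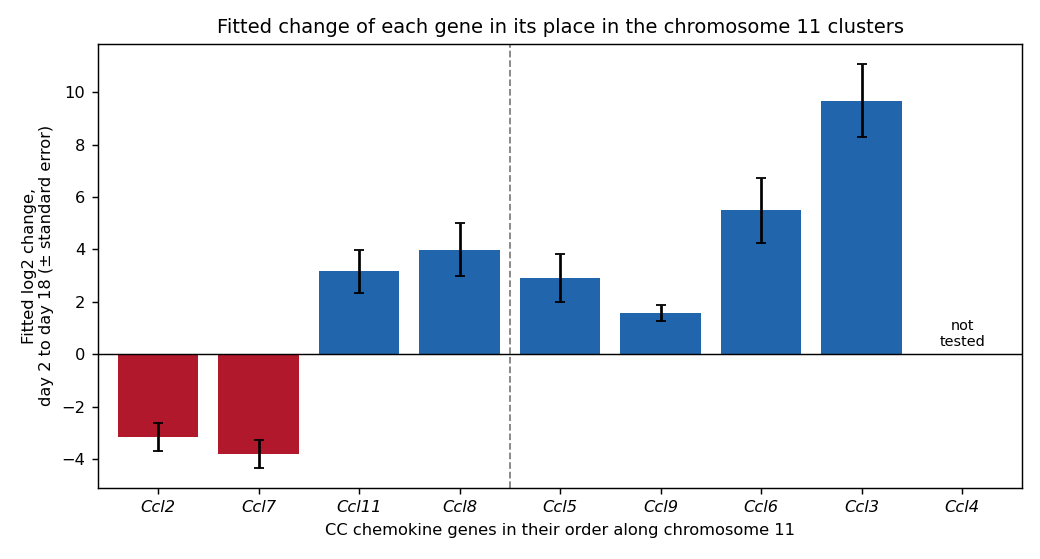
Fitted log2 change from day 2 to day 18 (bars from 0, with the standard error of the edgeR line over 9 libraries) for the members on chromosome 11 in their order along it; the dashed line separates the groups, and Ccl4 was not tested. Only Ccl2 (-3.16) and Ccl7 (-3.81) are below 0, and the bar of Ccl3 starts from 0 counts and is no measure of fold.

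The 250 bases before the start of transcription are shown for Ccl3, Ccl8 and Ccl9, which were above 10 TPM on day 18, and for Ccl20, which had no read, so that genes of differing course can be set side by side. The sequences are RefSeq's on GRCm38.p6, a later build than that of the counts, and 5 of the 10 members matched the promoter table (Ccl3, Ccl6, Ccl8, Ccl9 and Ccl20, but not Ccl2, Ccl4, Ccl5, Ccl7 and Ccl11). Capitals mark matches, on either strand, to motifs of inflammatory and basal promoter elements: TGANTCA (AP-1), TTCNNNGAA (the interferon-activated site GAS), TATAAA for the TATA box, GGGCGG for the GC box and the 10-base motifs of NF-kB and STAT6, in which 3 and 4 bases are free. The STAT6 motif differs from GAS by 1 more free base. All 4 stretches run 5′ to 3′ along the gene and lie directly upstream of its first exon: Ccl3 at chr11:83649379-83649628 (minus strand), Ccl8 at chr11:82114935-82115184 (plus strand), Ccl9 at chr11:83578637-83578886 (minus strand) and Ccl20 at chr1:83116516-83116765 (plus strand).
Ccl3: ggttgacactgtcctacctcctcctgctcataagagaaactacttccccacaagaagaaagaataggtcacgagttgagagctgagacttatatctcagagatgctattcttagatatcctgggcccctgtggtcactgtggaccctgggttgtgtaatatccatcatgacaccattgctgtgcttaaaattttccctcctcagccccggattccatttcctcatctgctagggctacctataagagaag
Ccl8: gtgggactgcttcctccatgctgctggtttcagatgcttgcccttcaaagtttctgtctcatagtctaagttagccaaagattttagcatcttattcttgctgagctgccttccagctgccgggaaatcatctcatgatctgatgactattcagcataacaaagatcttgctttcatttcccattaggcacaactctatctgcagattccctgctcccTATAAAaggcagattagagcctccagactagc
Ccl9: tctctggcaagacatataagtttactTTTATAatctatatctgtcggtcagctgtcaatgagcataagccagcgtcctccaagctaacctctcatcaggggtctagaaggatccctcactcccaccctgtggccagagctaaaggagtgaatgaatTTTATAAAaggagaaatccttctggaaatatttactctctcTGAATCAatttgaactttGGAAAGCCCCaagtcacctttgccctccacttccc
Ccl20: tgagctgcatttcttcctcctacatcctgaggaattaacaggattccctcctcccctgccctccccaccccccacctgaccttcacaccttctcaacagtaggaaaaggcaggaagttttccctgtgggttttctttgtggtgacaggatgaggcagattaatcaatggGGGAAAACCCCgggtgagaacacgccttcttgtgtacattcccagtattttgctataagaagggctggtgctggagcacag

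Positions are counted back from the start of transcription, whose preceding base is -1. Ccl8 had 1 match, TATAAA from -32 to -27. Ccl9 had an NF-kB match, GGAAAGCCCC from -35 to -26, an AP-1 match, TGAATCA from -53 to -47, and TATA matches on both strands that overlap around -94 to -87, with another at -224 to -219. Ccl20 had a pair of overlapping NF-kB matches from -81 to -71, and Ccl3 and Ccl6 had none of the 6 motifs. Of 32851 promoters of the same length, 4.11% held the NF-kB letters, 6.75% the AP-1 letters, 5.85% STAT6, 7.02% GAS, 12.4% the TATA letters and 32.7% the GC box. Ccl9, found from day 2 on, and Ccl20, with no read on any day, thus shared the NF-kB letters. A match describes letters in this window and is neither a bound site nor a cause.

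The receptors of these ligands had few reads. Of 10 Ccr genes, none reached 1 TPM on any day, and Ccr1, Ccr2 and Ccr8 had 0 counts throughout. Only Ccr10, a receptor of Ccl27, passed the filter for the line, and it rose (3.88, SE 1.43, edgeR adjusted p = 0.0404) at a highest level of 0.713 TPM, a call lost without the filter (adjusted p = 0.0629) and without any of days 2, 4, 6, 12, 14 or 16 (0.0534 to 0.0994). Among 4 atypical receptors, which bind chemokines without classical signalling, Ackr4 rose, with 4.61 TPM on day 2 and 27.2 TPM on day 18 (fitted change 2.93, SE 0.31, edgeR adjusted p = 6.78e-05), and Ackr1, Ackr2 and Ccrl2 stayed below 1 TPM. Ackr4 is known to scavenge Ccl19, Ccl21 and Ccl25, and its counts were in part fractional, as were those of Ccl27a.

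Of 11 other CC ligands, 10 were matched and 3 tested. Ccl27a, an attractant of skin-homing T cells, rose from 10.2 to 37.8 TPM between day 2 and day 18 (fitted change 2.03, SE 0.23, edgeR adjusted p = 9.74e-05), so its day 18 level was above that of every member. Ccl17, a ligand of Ccr4, fell (-2.20, SE 0.81, edgeR adjusted p = 0.0407), with 5.29 TPM on day 2, 0.461 TPM on day 14 and 1.76 TPM on day 18. It reached the filter mainly through the libraries of days 2 to 6, so its call follows in part from the filter. That call was lost without the filter (adjusted p = 0.0627), in DESeq2 (0.0783), in days 14 to 18 against days 2 to 6 (0.0723) and without any of days 2, 4, 6, 10, 12, 14 or 16, with a fitted change of -1.14 without day 2 (0.347). Ccl25 had a fitted change of -0.02 (edgeR adjusted p = 0.971). Ccl12, which sits between Ccl11 and Ccl8, had 0 or 1 count on each of days 2 to 10 and 7, 5, 16 and 14 counts on days 12 to 18. Ccl12 and Ccl19 changed over the days on the spline (edgeR adjusted p = 0.014 and 0.033), and Ccl1, Ccl21a, Ccl22 and Ccl26 had 0 counts. The transcript length used for Ccl26 was only 19.6 bases, so its 0 counts say little about its level.

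NF-kB, the transcription factor family through which tumour necrosis factor and interleukin 1 induce CC chemokine genes, was compared through 11 genes of its subunits and feedback regulators. Of these, 2 rose (Nfkb1 and Nfkbie), 3 fell (Rel, Nfkbiz and Tnfaip3) and 6 did not pass the test, with a median fitted change of -0.18. Of all genes tested, 28.3% rose and 26.1% fell, so the list was not called more often than genes at large (54.3%). Nfkbiz, an inducible co-activator of NF-kB, had TPM of 7.23, 10.7, 9.19, 5.50, 3.21, 2.82, 2.14, 2.55 and 2.44 from day 2 to day 18. Like Ccl2 and Ccl7 it was lowest on day 14 (fitted change -2.58, SE 0.35, edgeR adjusted p = 0.000217). All its early days lay above all late days, an order found in 25.6% of all genes tested. Tnfaip3, a feedback inhibitor, fell by 1.37 on the log2 scale (SE 0.29, edgeR adjusted p = 0.00268), with 5.74 TPM on day 2 and 2.15 TPM on day 18. The subunit gene Nfkb1 rose by a fitted 0.55 (SE 0.17, edgeR adjusted p = 0.0164), and Rel had a fitted change of -0.48 (SE 0.16, edgeR adjusted p = 0.0262). The call on Nfkb1 was lost without day 2 (adjusted p = 0.102), and that on Rel without day 4, 16 or 18 (0.0671 to 0.113), in days 14 to 18 against days 2 to 6 (0.0984) and in both limma fits (0.134 and 0.13).

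The 7 cytokines examined as inducers of CC chemokine genes had next to no reads, and other inducers were not examined. None of Tnf, Il1a, Il1b, Il4, Il13, Il17a and Ifng reached 1 TPM or passed the filter, and Il1b and Il17a had 0 counts. All 9 receptor genes for them were expressed, with a summed level of 265 to 349 TPM over the days. Tnfrsf1a reached the highest level of the 9 (105 TPM on day 18), but on day 2 Ifngr2 (71.0 TPM) was above it (68.8 TPM). On the line 1 of the 9 rose (Il17rc, 1.05, SE 0.20, edgeR adjusted p = 0.00126) and 1 fell (Il13ra1, -1.01, SE 0.36, edgeR adjusted p = 0.0364), beside 28.3% and 26.1% of all genes tested. On the spline 7 of the 9 passed, beside 57.5% of 16256 genes. The call on Il13ra1 was lost without any of days 4, 6, 12, 14 or 16 (adjusted p 0.0552 to 0.113) and in both limma fits (0.0949 and 0.0955). Il13ra1 had its highest level on day 6 (25.0 TPM) and its lowest on day 14 (9.05 TPM), the days on which Ccl2 was also highest and lowest. Its levels on day 2 (12.5 TPM) and day 18 (12.9 TPM) were close.

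**Figure D4:**
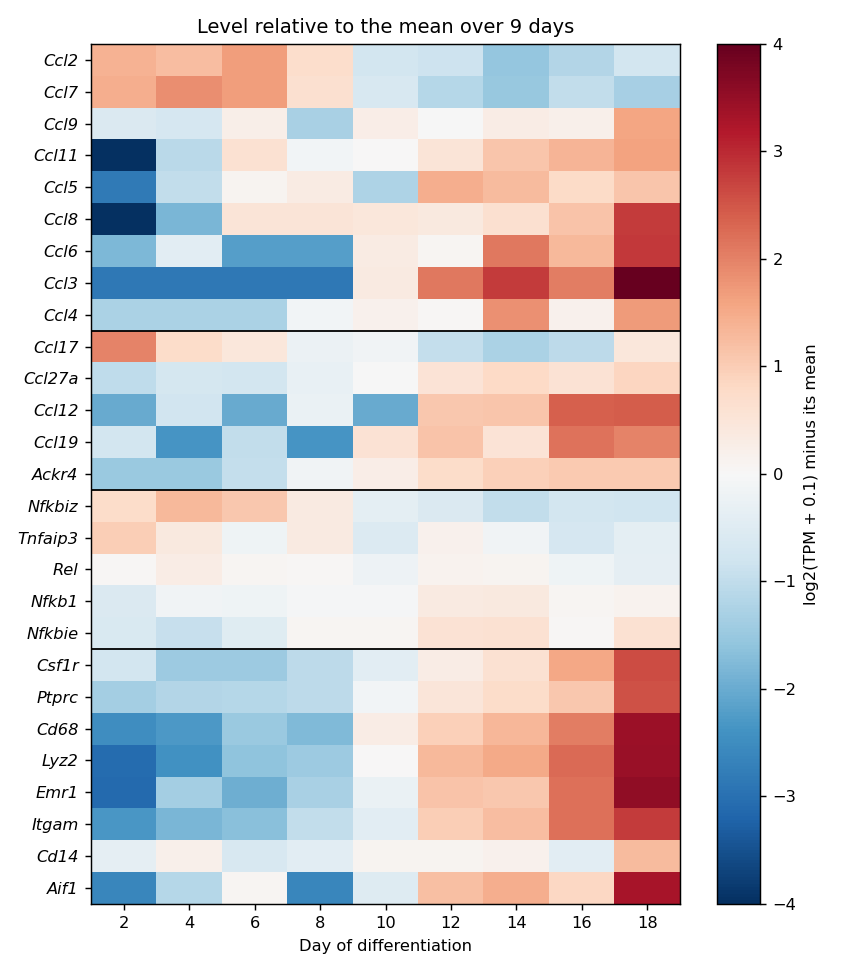
Heat map of log2(TPM + 0.1) minus its mean over the 9 days (colour, limits -4 to 4) for 9 CC chemokine genes, other CC ligands with Ackr4, NF-kB genes that passed the test and monocyte and macrophage markers, separated by lines. Ccl2, Ccl7 and Nfkbiz are red on days 2 to 6, and Ccl3, Ccl6 and Ccl8 are darkest red on day 18, as are Lyz2, Cd68 and Emr1.

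Likeness in pattern was measured as the root mean square difference, over the 9 libraries, between log2 CPM centred on each gene's mean, among 7619 genes with a mean of at least 10 TPM. For Ccl2 the closest were Snhg4, a host gene of small nucleolar RNA (0.27), Bcat1, an enzyme of branched-chain amino acid breakdown (0.27), and Uck2, a pyrimidine salvage kinase (0.29), where the spread of Ccl2 around its own mean was 1.18. For Ccl7 they were Msx2, a homeobox factor of skull development (0.25), Uck2 (0.28) and Cd44, a hyaluronan receptor (0.29). Ccl7 ranked 11 for Ccl2 and Ccl2 ranked 7 for Ccl7, at a difference of 0.32.

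The 3 closest to Ccl11 were Dpt, an extracellular matrix protein (0.44), Sod3, an extracellular superoxide dismutase (0.46), and Itgbl1 (0.55), at a spread of 1.61 around its own mean. Dpt (0.48) and Sod3 (0.56) also came first for Ccl8, followed by Hfe (0.59), at a spread of 1.54. For Ccl3 they were Stab1, a scavenger receptor of macrophages and endothelium (0.46), Aldh1a2, an enzyme of retinoic acid synthesis (0.51), and Lpl, lipoprotein lipase (0.55), at a spread of 2.41. For Ccl9 they were Slc24a6 (0.19), Agpat2 (0.20) and Fxyd5 (0.20), at a spread of 0.58 around its own mean. These differences are descriptions over 9 libraries of 1 time course, and they are larger for genes with a larger spread.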

How the data were processed

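RNA sequencing profiles of 27 samples, 3 on each of 9 days, were used, grouped by the day in their labels. The authors aligned reads with Bowtie 0.12.9 to NCBIM37 and quantified genes with RSEM 1.2.8, as named in the submitters' processing notes. The expected count of each gene, an estimated count that is not normalised, was deposited by the authors as RSEM wrote it. The TPM deposited by the authors divide each count by an effective length and scale it to the library. The FPKM deposited by the authors were used only as an alternative. Complementary DNA was amplified before library construction, which can distort low counts.

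The 3 profiles of a day were summed and rounded to 1 library. TPM were divided by the 75th percentile of values above 0 in each profile and multiplied by the mean percentile, then averaged over the day's profiles. edgeR 4.0.16 in R 4.3.3 (quasi-likelihood test with upper-quartile factors and Benjamini-Hochberg adjustment, after filterByExpr at a minimum of 10 counts) fitted a straight line in day, or a natural spline with 3 degrees of freedom, to the 9 libraries. Alternatives were TMM factors, DESeq2 1.42.0, limma 3.58.1 on log2(TPM + 0.5) and log2(TPM + 0.1), no filter, 27 separate profiles, profiles or days left out, days 14 to 18 against days 2 to 6, other thresholds and values as deposited. Counting floors use 3 counts and cover counting error only. Symbols matched 37205 of 37991 identifiers. The replicate numbers did not pair the profiles across days (mean correlation of deviations -0.00084 over 108 same-numbered pairs and 0.00042 over the others).

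The members and all gene lists were chosen with earlier results of these data known. The genes named are the 10 members, genes of the receptor, ligand, NF-kB and cytokine lists past an adjusted p of 0.05 or at 1 TPM or more on a day (the latter mostly as counts), and the 3 genes most like each member that reached 10 TPM. Exceptions are stated. Python 3.11.15 and scipy 1.17.1 were used.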

Additional observations from a re-analysis of the deposited data

How the results depend on the processing

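Of 518 values recomputed under the alternatives, 475 kept their direction and their side of the threshold (or, for counts, stayed within 1.5 times). Another 43 kept their direction but were no longer past it (or, for counts, were lower by more than 1.5 times), and 0 reversed. For the fitted changes of the members, 156 of 164 were kept, and the 8 below the threshold belonged to Ccl5, Ccl8 and Ccl11. In 4 more settings (without day 14, without day 18, without both days 2 and 18, and 27 profiles with no block) Ccl6 was under the filter and had no test. The fitted change of Ccl2 ranged from -4.46 to -2.61 and that of Ccl9 from 1.07 to 1.78, and the edgeR, DESeq2 or limma adjusted p was at most 0.0036 for Ccl2, 0.00103 for Ccl7 and 0.0245 for Ccl9. Members called on the line numbered 6 to 8 when each profile number or day was left out, 6 with days 14 to 18 against days 2 to 6, and 9 without the filter, where Ccl4 also passed. Without days 2 and 18, an alternative chosen after seeing the data, 5 members were called, 3 rising and 2 falling. All genes called on the line numbered 7187 to 8447 when days were left out. With the 27 profiles as separate samples, 10754 genes and 7 members were called with no replicate block and 10881 genes and 8 members with the replicate block. These counts treat profiles that share a barcode as independent samples. With 1 library per day and 9 in all, a difference between single days has no replicate check. Counts under about 10 per library limit Ccl4, Ccl6 and Ccl12. They also limit the earliest days of Ccl3, Ccl5, Ccl8 and Ccl11, and day 10 of Ccl3 and Ccl5.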
